A study of Mus musculus with 6 samples.

Results

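The genes described here encode the subunits of the phosphoprotein phosphatases 1 to 6 (symbols beginning with Ppp) and the dual-specificity phosphatases (symbols beginning with Dusp) in mouse cortical neurons. They were chosen by their symbol alone, as every row of the deposited table whose symbol begins with Ppp and a digit from 1 to 6 or with Dusp and a digit, without use of a measured value. The families themselves were picked for description with results of these data in view. The rule gave 81 rows of the 15705 in the table, 64 Ppp rows and 17 Dusp rows. These rows carry 80 symbols, because Ppp1r3e has 2 rows. Ppp4r1l-ps is annotated as a transcribed pseudogene and was kept. Each row holds the Sd score, read here as splicing deficiency, in each of 6 libraries. Scores of this kind relate the unspliced to the spliced reads of a gene, and higher values then mean less complete splicing. Its exact formula is not given in the sources used here.

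The neurons were isolated from C57BL/6 mouse embryos at embryonic day 18 and exposed to lentivirus at 7 days in vitro for 3 days. The 3 control libraries came from neurons given the vector FCK1.3GW, which carries EGFP, a short CaMKII promoter, the WPRE element and long terminal repeats. The 3 N40K libraries came from neurons given FCK1.3GW-N40K, where N40K denotes an N-terminal piece of U1-70K, a protein of the U1 snRNP, which binds 5′ splice sites. Both groups therefore carried the virus backbone, and CaMKII promoters are used to drive expression mainly in excitatory neurons. Nothing in the labels states that the replicates came from separate cultures, and p-values therefore reflect only the spread among these samples, possibly technical.

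The phosphoprotein phosphatases remove phosphate from serine and threonine. A few catalytic subunits (PP1, PP2A, calcineurin, PP4, PP5 and PP6) obtain their substrates and their place in the cell from a large set of regulatory subunits, and in neurons PP1 and calcineurin act at synapses, where calcineurin is switched on by calcium. The dual-specificity phosphatases remove phosphate from both tyrosine and threonine or serine. The MAP kinase phosphatases among them switch off ERK, JNK and p38, and several are themselves induced by the kinases that they switch off. Many of those are short genes with few introns, while many Ppp genes are long.

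Scores ranged from 0.0001 to 2886.7 over the table and have 4 decimals, so that the lowest scores have few significant digits, and the depth behind each is unknown. The median score of all genes was 0.0127 to 0.0136 in the control libraries and 0.0146 to 0.0163 in the N40K libraries. Over the 81 rows, which are not independent of each other, Spearman's rho was 0.982 to 0.987 between libraries of one group and 0.937 to 0.966 between libraries of different groups. All 9 neuronal markers had a score, as did 4 of 4 astrocyte, 3 of 5 oligodendrocyte lineage, 3 of 4 microglial and 1 of 3 endothelial markers. A score is not an expression level, so it does not show how many of those cells were present. None of the scored neuronal, astrocyte, oligodendrocyte lineage or endothelial markers was called. Of the microglial markers, Csf1r and Itgam rose (Csf1r from 0.00663 ± 0.00144 to 0.0183 ± 0.00446, SD, n = 3) and Aif1 was not called. The summed score of the 3 microglial markers was 0.0999 to 0.134 in control and 0.149 to 0.164 in N40K libraries, that of the endothelial marker Pecam1 was 0.0024 to 0.0097 and 0.0105 to 0.0212 (adjusted p = 0.102), and the part of cell mixture in the results below was not tested. In bulk RNA a change within cells and a change in the mixture of cells cannot be told apart.

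Among the Ppp genes, 23 rose and none fell in the scores as deposited, a balance that turned to 6 higher and 9 lower after median centring. Some of those 9 had a ratio of N40K to control mean score of 1.0 or more. Over all genes 9.75% were higher and 18.4% lower after that centring. In the test used here, limma on log2(score + 0.01) with adjustment over all genes, "rose" and "fell" denote an adjusted p under 0.05. Of the 64 genes, 23 rose, 0 fell and 41 were not called, beside a background over all 15705 genes of 21.5% rising and 4.11% falling. At an unadjusted p under 0.05, 30 Ppp genes were higher and 2 lower. The 23 rises are 35.9% of the Ppp genes. For 33 Ppp genes every N40K score exceeded every control score and for 2 every N40K score was lower, where the background was 33.6% above and 8.67% below, and the groups overlapped for 29. The median ratio of N40K to control mean score was 1.18, against 1.11 over all genes. Rises had ratios of 1.37 to 2.87 with a median of 1.55.

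Dusp genes moved in both directions. Of the 17 Dusp genes, 3 rose (17.6%), 4 fell (23.5%) and 10 were not called, against the same background of 21.5% and 4.11%. The groups were fully separated with N40K higher for 4 Dusp genes and with N40K lower for 6, beside 33.6% and 8.67% of all genes. The median ratio was 0.826, and 11 of the 17 ratios were below 1. Ratios were below 1 for 18 of the 64 Ppp genes and for 5077 of all 15705 genes. Both families were compared by these counts and medians alone, because genes are not replicates of a condition.

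**Figure D1:**
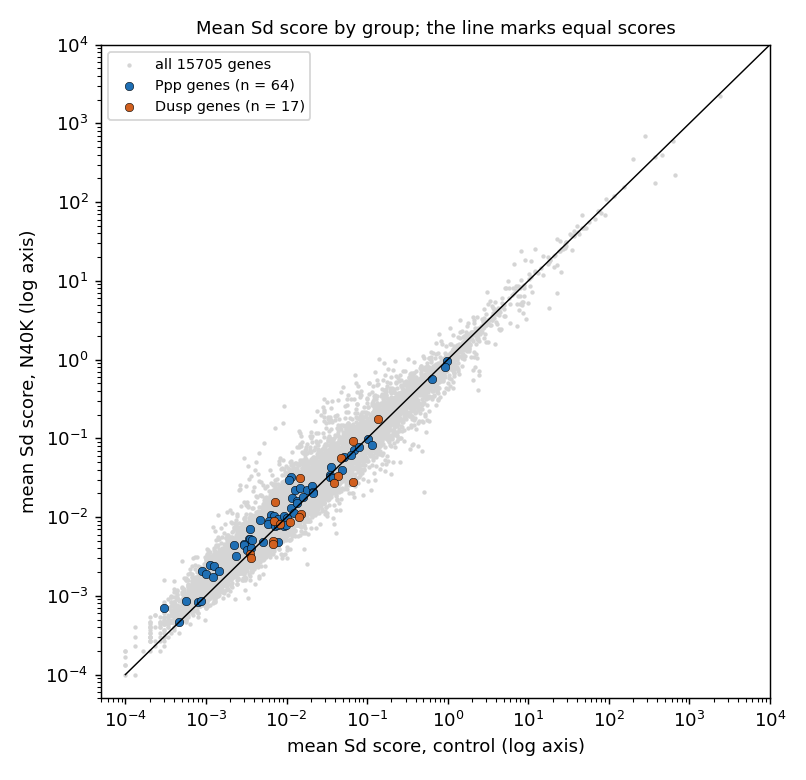
Mean Sd score in control libraries (horizontal, log axis) and N40K libraries (vertical, log axis) for all 15705 genes in grey, the 64 Ppp genes in blue and the 17 Dusp genes in orange, each a mean of 3 libraries. The line marks equal scores: 44 Ppp genes lie above it and 11 Dusp genes below it.

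The scores were analysed as deposited, with no scaling between libraries, and the balance of higher and lower calls depended on that choice. Median centring of the libraries took away a log2 shift of 0.13, after which 6 Ppp genes were called higher and 9 lower, beside 9.75% of all genes higher and 18.4% lower. Quantile normalization gave 13 Ppp genes higher and 5 lower, beside 12.9% and 12.0% of all genes. Centring by the median deviation gave 13 higher and 4 lower, beside 2235 higher and 1518 lower of all 15705 genes. The same scalings gave 2, 2 and 3 Dusp genes higher and 9, 9 and 7 lower. The median log2 change of the Ppp genes was 0.09 as deposited, -0.04 after median centring, about 0 (-0.0019) after quantile normalization and 0.02 after median deviation centring, while that of the Dusp genes was -0.07, -0.20, -0.15 and -0.14. Over all genes it was 0.06, -0.07, -0.02 and -0.0059 in the same order. Centring takes a like amount from every gene, so the sign of the Ppp median follows the scaling by construction. It was applied after 0.01 was added, so genes scoring far below 0.01, whose log2 values vary little, can be called lower without a fall in score. Among the 9 lower Ppp genes, Ppp3ca and Ppp2r1a had a ratio of 1.0, Ppp2r2c of 1.04 and Ppp3r1 of 1.53. Ppp3ca was called lower after median deviation centring too (adjusted p = 0.0192). The Ppp median lay above that of all genes, and the Dusp median below it, in each of these 4 settings. Of the 23 Ppp rises, 6 were called under all 3 scalings, as were 2 of the 3 Dusp rises and all 4 Dusp falls. Of the 30 called genes, Ppp2r5e, Ppp2r2a, Ppp6r3, Ppp2r2b and Ppp3r1 had a log2 change below 0 after median centring, and the last 3 also after median deviation centring.

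**Figure D2:**
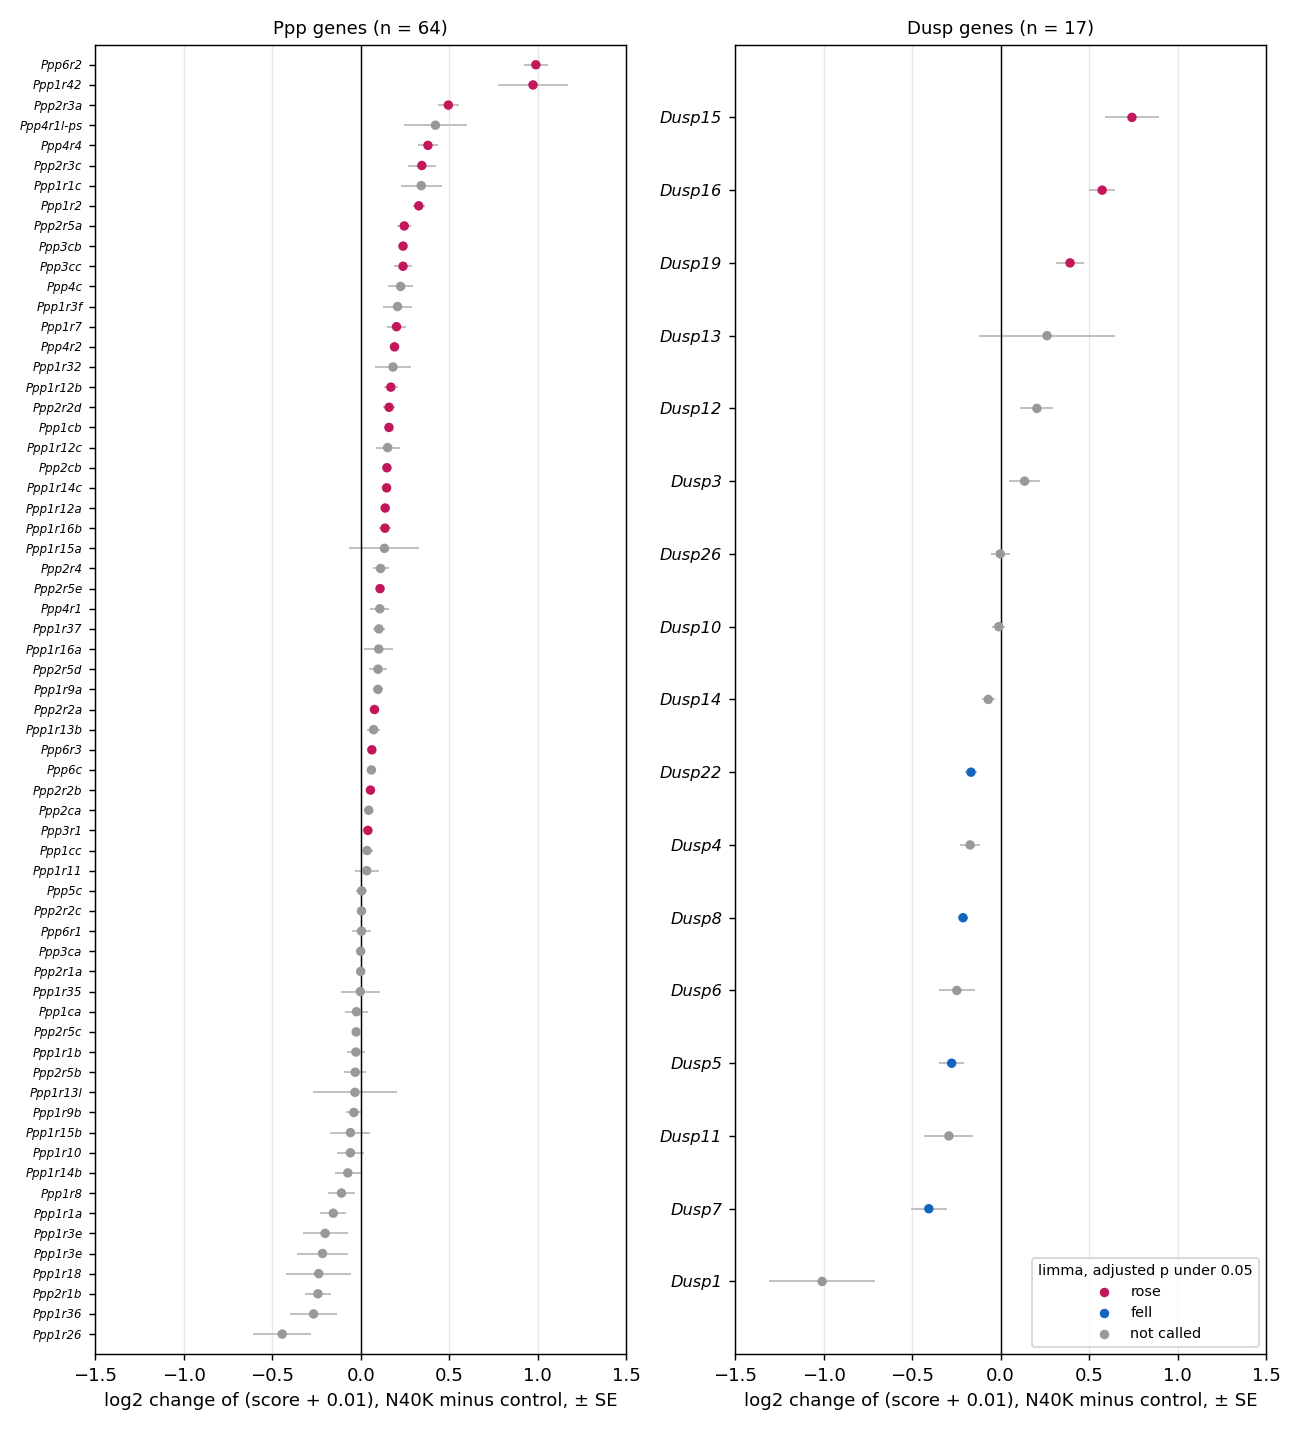
Log2 change of (score + 0.01), N40K minus control, with its SE from limma (3 libraries a group), for the 64 Ppp genes (left) and the 17 Dusp genes (right). Red points rose (23 Ppp, 3 Dusp), blue points fell (4 Dusp) and grey points were not called.

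Among the catalytic subunits, a rise was seen in one isoform of PP1, one of PP2A and both the beta and gamma forms of calcineurin, in scores as deposited. After median centring only Ppp3cb of these 4 was called (adjusted p = 0.0299), the others having log2 changes of 0.03 for Ppp1cb (adjusted p = 0.490), 0.02 for Ppp2cb (adjusted p = 0.726) and 0.11 for Ppp3cc (adjusted p = 0.0614). Ppp2cb was not called under median deviation centring or quantile normalization either (adjusted p = 0.0545 and 0.0795). Ppp1cb, the PP1 form that pairs with the myosin-targeting subunits, scored 0.0011, 0.0010 and 0.0013 in the control libraries and 0.0024, 0.0025 and 0.0024 in the N40K libraries. Its N40K libraries were all higher, with a ratio of 2.15 (log2 change 0.16 ± 0.01 SE, adjusted p = 0.00269). The 2 other PP1 catalytic genes were not called. Ppp1ca scored 0.0803, 0.0789 and 0.0811 in control and 0.0778, 0.0779 and 0.0802 in N40K libraries, and these groups overlap (adjusted p = 0.830). Ppp1cc scored 0.00723 ± 0.00032 in control and 0.00767 ± 0.00032 in N40K libraries (SD, n = 3, adjusted p = 0.480). Whether Ppp1cb differed in response from Ppp1ca and Ppp1cc was not tested.

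Ppp2cb, the beta catalytic subunit of PP2A, scored 0.0029, 0.0030 and 0.0030 in control and 0.0042, 0.0046 and 0.0043 in N40K libraries, with no overlap. Its ratio was 1.47 (log2 change 0.15 ± 0.02 SE, adjusted p = 0.00518). Its sister Ppp2ca scored 0.0035, 0.0035 and 0.0040 in control and 0.0043, 0.0040 and 0.0040 in N40K libraries and was not called (adjusted p = 0.211). Ppp3cb, calcineurin A beta, scored 0.0022 in each control library and 0.0042, 0.0044 and 0.0046 in the N40K libraries, a ratio of 2.00 (log2 change 0.24 ± 0.02 SE, adjusted p = 0.00165). Ppp3cc, the gamma form, scored 0.0063, 0.0058 and 0.0059 in control and 0.0078, 0.0090 and 0.0099 in N40K libraries, all N40K values being higher (ratio 1.48, adjusted p = 0.0193). Ppp3ca, the alpha form, scored 0.0005, 0.0004 and 0.0005 in control and 0.0004, 0.0005 and 0.0005 in N40K libraries. These scores have 1 significant digit, so a change smaller than the last decimal could not be seen in it. Ppp3r1, the calcium-binding B subunit, scored 0.0005, 0.0006 and 0.0006 in control and 0.0008, 0.0008 and 0.0010 in N40K libraries (ratio 1.53, adjusted p = 0.0446). Its log2 change was 0.04 as deposited, 0.0097 after quantile normalization and -0.09 after median centring, where it was called (adjusted p = 0.0476). Its scores lie far below the added 0.01, and both kinds of centring took away more than 0.04, so its turn follows by construction. Ppp3ca, with equal group means, was likewise called lower after median centring (adjusted p = 0.0154).

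The catalytic genes of PP4, PP5 and PP6 were not called. Ppp4c scored 0.0358, 0.0337 and 0.0374 in control and 0.0460, 0.0405 and 0.0436 in N40K libraries, without overlap (adjusted p = 0.0702). Ppp6c scored 0.00323 ± 0.00015 and 0.0038 ± 0.00036 (SD, n = 3), also without overlap (adjusted p = 0.130). Ppp5c scored 0.0078 ± 0.00026 in control and 0.00787 ± 0.00032 in N40K libraries (adjusted p = 0.929).

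PP2A is assembled from a catalytic, a scaffold and a variable regulatory subunit. Of the 16 PP2A genes, 8 rose and 0 fell, with 9 higher and 1 lower at an unadjusted p under 0.05, where 21.5% of all genes rose and 4.11% fell. After median centring 1 of the 8 rises, Ppp2r3a, was called and 4 PP2A genes were called lower. The lower genes include Ppp2r1a and Ppp2r2c, with ratios of 1.0 and 1.04. Over all genes 9.75% were called higher and 18.4% lower after median centring. Of the 8 rises, 3 were called after median deviation centring and 3 after quantile normalization. As deposited, the rises were 3 of 4 B subunits, 2 of 5 B' subunits, both B'' subunits and 1 of 2 catalytic subunits, and neither of the 2 scaffold genes was called. Ppp2r3a encodes a calcium-binding B'' subunit. It scored 0.0132, 0.0132 and 0.0118 in control and 0.0211, 0.0217 and 0.0233 in N40K libraries, a ratio of 1.73 (log2 change 0.49 ± 0.06 SE, adjusted p = 0.00471). Ppp2r3c, the other B'' gene, scored 0.0130, 0.0107 and 0.0111 in control and 0.0171, 0.0155 and 0.0198 in N40K libraries (ratio 1.51, adjusted p = 0.0271). Both B'' genes had no overlap between the groups. Ppp2r5a, which encodes the B56 alpha form of the B' subunit, scored 0.0068, 0.0067 and 0.0077 in control and 0.0101, 0.0107 and 0.0099 in N40K libraries (ratio 1.45, adjusted p = 0.0109). Ppp2r2b, a brain-enriched B subunit gene, scored 0.0003 in each control library and 0.0006, 0.0008 and 0.0007 in the N40K libraries (adjusted p = 0.0121). The scaffold gene Ppp2r1b went the other way without being called, with 0.0460, 0.0501 and 0.0519 in control and 0.0386, 0.0396 and 0.0423 in N40K libraries (adjusted p = 0.0574).

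PP1 takes its targets from many regulators. Of all 34 PP1 genes, 8 rose (23.5%) and 0 fell, with 12 higher and 1 lower at an unadjusted p under 0.05, which is near the background of 21.5% for rises. The myosin-targeting subunits, which bring PP1 to myosin and the cytoskeleton, gave 3 rises of 5. None of the 3 was called after median centring, with log2 changes of 0.0079 for Ppp1r12a (adjusted p = 0.806), 0.04 for Ppp1r12b (adjusted p = 0.325) and 0.0066 for Ppp1r16b (adjusted p = 0.881), and only Ppp1r12a was called under the other 2 scalings. One of them, Ppp1r12a, scored 0.0015, 0.0012 and 0.0011 in control and 0.0022, 0.0023 and 0.0027 in N40K libraries (ratio 1.89, adjusted p = 0.00945). Its relative Ppp1r12b scored 0.0036, 0.0035 and 0.0034 in control and 0.0044, 0.0053 and 0.0059 in N40K libraries (ratio 1.49, adjusted p = 0.0267). The third was Ppp1r16b (adjusted p = 0.0335). The groups did not overlap in these 3 genes, and the catalytic partner Ppp1cb, also not called after median centring, rose too.

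Of 7 PP1 inhibitor genes, 2 rose, near the share of 21.5% over all genes. Ppp1r2, inhibitor 2, scored 0.0061, 0.0065 and 0.0068 in control and 0.0108, 0.0103 and 0.0109 in N40K libraries, with a narrow spread in both groups (ratio 1.65, log2 change 0.33 ± 0.04 SE, adjusted p = 0.00386). Ppp1r14c, an inhibitor activated by phosphorylation, had a ratio of 2.30 from scores of 0.0008 to 0.0010 in control and 0.0016 to 0.0024 in N40K libraries (adjusted p = 0.0139). DARPP-32, the dopamine-regulated inhibitor encoded by Ppp1r1b, scored 0.0223, 0.0210 and 0.0214 in control and 0.0212, 0.0207 and 0.0210 in N40K libraries, and the groups overlap (adjusted p = 0.757). Ppp1r7, which encodes the general PP1 regulator SDS22, scored 0.0071, 0.0055 and 0.0051 in control and 0.0082, 0.0085 and 0.0081 in N40K libraries (ratio 1.40, adjusted p = 0.0394). Ppp1r42, which encodes a leucine-rich repeat protein that binds PP1, had the second highest ratio of the called Ppp genes at 2.83. It scored 0.0096, 0.0160 and 0.0062 in control and 0.0300, 0.0241 and 0.0358 in N40K libraries (adjusted p = 0.0195), and its control scores differed more among themselves than those of the other genes named here as rising.

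The PP1 subunits of the synapse and of the stress response were not called. Ppp1r9a and Ppp1r9b encode neurabin and spinophilin, which hold PP1 at dendritic spines. Neurabin scored 0.0026, 0.0023 and 0.0022 in control and 0.0027, 0.0034 and 0.0036 in N40K libraries, without overlap (adjusted p = 0.0642). Spinophilin scored 0.0102 ± 0.0004 and 0.00963 ± 0.00055 (SD, n = 3, adjusted p = 0.553). Ppp1r15a and Ppp1r15b, which direct PP1 to the translation factor eIF2 alpha, scored 0.0134 and 0.0159 (adjusted p = 0.678) and 0.0123 and 0.0113 (adjusted p = 0.762) as means of control and N40K libraries. The 2 rows of Ppp1r3e were not called either. The ratio of one row to the other was 0.662 to 0.718 over the libraries, and counting the symbol once leaves 23 rises among 63 Ppp genes.

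PP4 and PP6 regulatory subunits held the highest ratio of the family. Ppp6r2, a subunit that guides PP6 to its substrates, scored 0.0118, 0.0107 and 0.0112 in control and 0.0292, 0.0328 and 0.0346 in N40K libraries. The lowest N40K score thus lay far above the highest control score, and the ratio was 2.87 (log2 change 0.99 ± 0.07 SE, adjusted p = 0.00165). Ppp4r4, a cytoplasmic regulator of PP4, scored 0.0046, 0.0042 and 0.0052 in control and 0.0078, 0.0102 and 0.0093 in N40K libraries (ratio 1.95, adjusted p = 0.00787). Ppp4r2, a PP4 regulator with a part in DNA repair, scored 0.0035, 0.0033 and 0.0035 in control and 0.0050, 0.0054 and 0.0056 in N40K libraries (ratio 1.55, adjusted p = 0.00482). The groups did not overlap in either PP4 gene. The remaining rises were Ppp2r2d, Ppp2r2a, Ppp2r5e and Ppp6r3, with adjusted p-values of 0.0161 to 0.0214. These and Ppp2r2b, Ppp1r12a, Ppp1r14c and Ppp1r16b lie outside the rule for named genes and are named with their values already known.

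**Figure D3:**
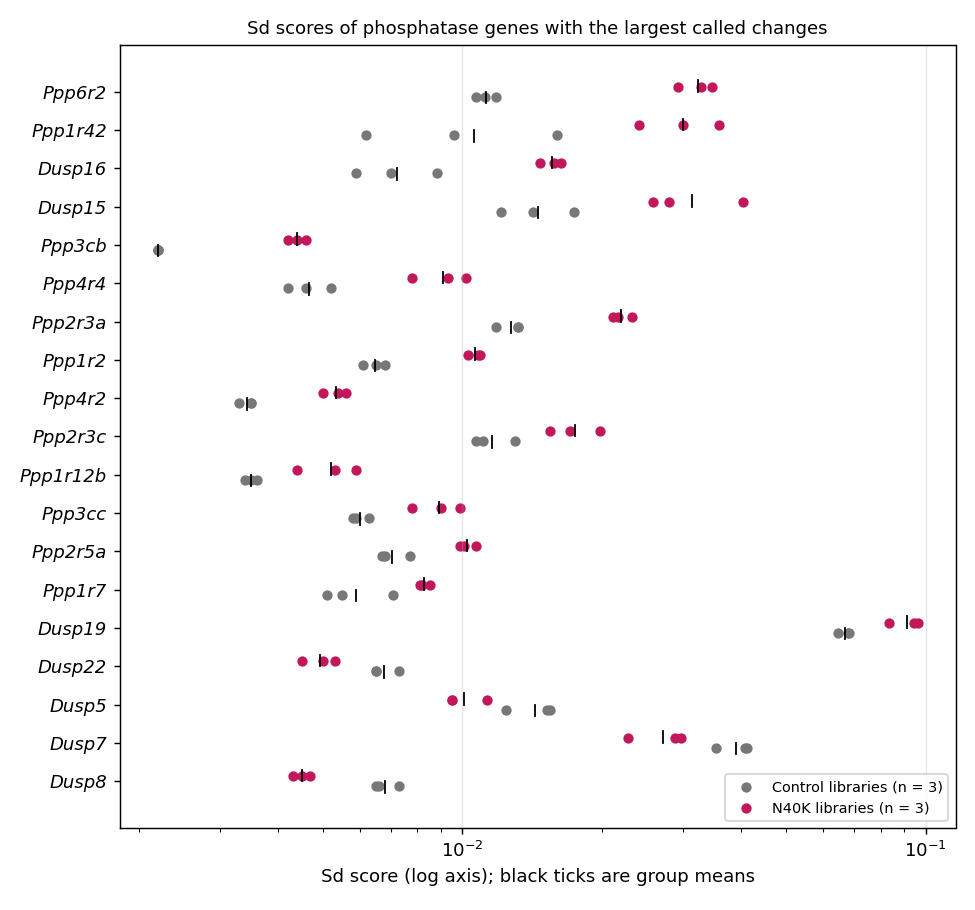
Sd score (log axis) in each of the 3 control libraries (grey) and 3 N40K libraries (red) for 19 called genes. Genes are sorted by ratio, with group means as black ticks. They were chosen by log2 change of (score + 0.01), a scale that understates changes at low scores. Some called genes with larger ratios, such as Ppp2r2b (2.33) and Ppp1r14c (2.30), are not shown. Groups without overlap were a condition of the choice, and Dusp8, Dusp7, Dusp5 and Dusp22 have the N40K points on the lower side.

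The MAP kinase phosphatases held 3 of the 4 Dusp falls. Of the 8 with a score, 3 fell (Dusp5, Dusp7 and Dusp8) and 1 rose (Dusp16), 7 had a ratio below 1, and the median ratio was 0.718, where 4.11% of all genes fell and 21.5% rose. All N40K scores lay below all control scores in 5 of the 8, against 8.67% of all genes. Dusp8 inactivates JNK and p38 and is expressed in brain. It scored 0.0073, 0.0065 and 0.0066 in control and 0.0043, 0.0045 and 0.0047 in N40K libraries, a ratio of 0.662 (log2 change -0.21 ± 0.03 SE, adjusted p = 0.00674). Dusp7, which acts on ERK in the cytoplasm, scored 0.0407, 0.0353 and 0.0411 in control and 0.0228, 0.0288 and 0.0297 in N40K libraries (ratio 0.694, log2 change -0.41 ± 0.10 SE, adjusted p = 0.0347). Dusp5, which acts on ERK in the nucleus, scored 0.0152, 0.0155 and 0.0124 in control and 0.0113, 0.0095 and 0.0095 in N40K libraries (ratio 0.703, adjusted p = 0.0396). In all 3 genes every N40K library was lower than every control library.

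Dusp1 had the lowest ratio among the 81 rows and was not called. It is an immediate early gene whose product inactivates MAP kinases in the nucleus, and Dusp1 scored 0.0604, 0.0980 and 0.0446 in control and 0.0246, 0.0202 and 0.0388 in N40K libraries. The groups do not overlap and the ratio is 0.412, but the spread among control libraries was wide (log2 change -1.01 ± 0.30 SE, adjusted p = 0.0562). Dusp4, the third nuclear form, scored 0.0127, 0.0102 and 0.0106 in control and 0.0093, 0.0088 and 0.0082 in N40K libraries, also without overlap (adjusted p = 0.0838). Dusp6, which holds ERK in the cytoplasm, scored 0.0161, 0.0118 and 0.0175 in control and 0.0105, 0.0102 and 0.0126 in N40K libraries, and its groups overlap (adjusted p = 0.136). Dusp1, Dusp4 and Dusp6 were called lower after median centring and after quantile normalization, as were Dusp11 and Dusp14. Dusp16, a JNK phosphatase, was the exception. It scored 0.0059, 0.0088 and 0.0070 in control and 0.0158, 0.0163 and 0.0147 in N40K libraries, a ratio of 2.16 (log2 change 0.57 ± 0.07 SE, adjusted p = 0.00532). The remaining JNK and p38 phosphatase, Dusp10, had overlapping groups (adjusted p = 0.876).

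Of the 9 atypical dual-specificity phosphatases, which lack the MAP kinase docking domain, 2 rose and 1 fell, and the median ratio was 1.19. Their share of rises is near the 21.5% over all genes, of which 4.11% fell. Dusp15 scored 0.0174, 0.0121 and 0.0142 in control and 0.0280, 0.0258 and 0.0404 in N40K libraries (ratio 2.16, adjusted p = 0.0206). This gene is known from oligodendrocyte differentiation, and none of the 3 scored oligodendrocyte lineage markers was called, their summed score being 0.11 to 0.128 in control and 0.105 to 0.118 in N40K libraries. Dusp19, linked to JNK signalling, scored 0.0648, 0.0683 and 0.0681 in control and 0.0835, 0.0961 and 0.0943 in N40K libraries (ratio 1.36, adjusted p = 0.0190). Dusp22, a regulator of JNK and T cell receptor signalling, scored 0.0073, 0.0065 and 0.0065 in control and 0.0050, 0.0045 and 0.0053 in N40K libraries (ratio 0.729, adjusted p = 0.0202). The groups did not overlap in these 3 genes. Dusp12 scored 0.0462 to 0.0496 in control and 0.0508 to 0.0643 in N40K libraries and was not called (adjusted p = 0.169).

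The upstream sequences of 3 of the lower-scoring MAP kinase phosphatase genes are shown because Dusp1, Dusp5 and Dusp8 hold elements known from inducible genes. They are the 250 bases before the start in the RefSeq promoter table (build GRCm38.p6), printed 5′ to 3′ on the strand of the gene. Capitals mark the cAMP response element TGACGTCA, its core TGACG or the reverse complement of that core, and the CArG box, the binding sequence of serum response factor. Both strands were searched, and a full element contains 2 matches of the core. Dusp1 lies at chr17:26508473-26508722 (minus strand), Dusp5 at chr19:53528895-53529144 (plus strand) and Dusp8 at chr7:142095285-142095534 (minus strand).
Dusp1: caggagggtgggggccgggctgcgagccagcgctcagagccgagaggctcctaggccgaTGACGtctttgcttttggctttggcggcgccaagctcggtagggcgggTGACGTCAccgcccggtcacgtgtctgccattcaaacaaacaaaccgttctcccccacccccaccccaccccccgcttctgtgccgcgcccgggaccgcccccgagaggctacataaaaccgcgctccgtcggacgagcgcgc
Dusp5: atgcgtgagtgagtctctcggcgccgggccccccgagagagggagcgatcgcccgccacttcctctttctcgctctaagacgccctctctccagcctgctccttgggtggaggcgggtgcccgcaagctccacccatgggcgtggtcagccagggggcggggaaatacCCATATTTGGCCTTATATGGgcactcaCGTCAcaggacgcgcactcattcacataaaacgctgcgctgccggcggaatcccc
Dusp8: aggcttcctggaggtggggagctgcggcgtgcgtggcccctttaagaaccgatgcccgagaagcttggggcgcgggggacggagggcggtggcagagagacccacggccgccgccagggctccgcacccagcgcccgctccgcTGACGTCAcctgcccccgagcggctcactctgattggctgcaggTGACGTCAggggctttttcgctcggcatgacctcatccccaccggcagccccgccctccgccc
Dusp1 has 1 cAMP response element that starts 143 bases upstream, Dusp8 has 2, the first of which starts 107 bases upstream, and Dusp5 has 2 CArG boxes next to each other, the first starting 82 bases upstream. The table matched 60 of the 80 symbols, 47 Ppp and 13 Dusp genes. The full cAMP response element was found in 2 of 13 Dusp and 4 of 47 Ppp genes (Ppp1r12c, Ppp1r15a, Ppp2ca and Ppp2r2d) and in 1.55% of all 32851 windows of this length. The core was found in 5 Dusp and 17 Ppp genes and in 17.8% of windows, and the CArG box in 1 Dusp gene, no Ppp gene and 1.47% of windows. Genes were counted once if any of their windows held a match, whereas the background counts single windows, so these shares have unlike units. Neither the full element nor the CArG box was found in these windows of Dusp6, Dusp7 and Dusp22. A match is a description of the letters. Of the 6 genes with a full cAMP response element Dusp8 fell, Ppp2r2d rose and 4 were not called.

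Calls changed when a library was left out, as the plot of calls by setting shows. Each such fit has 1 library fewer in a group, and the part of that smaller number in lost calls was not tested. The log2 change kept its sign in each of these fits for all 30 called genes. Of the 23 Ppp rises, 10 were called whichever library was left out, and 5 of these (Ppp4r4, Ppp3cb, Ppp6r2, Ppp2r3a and Ppp1r2) were called under all 3 scalings too. The count of Ppp rises was 15, 12 and 10 without control 1, 2 and 3, and 23, 16 and 18 without N40K 1, 2 and 3. Among the named Ppp genes, Ppp1r42 was not called without control 1, control 3 or N40K 3 (adjusted p up to 0.0632), and Ppp2r3c without control 2, control 3, N40K 1 or N40K 3 (up to 0.0905). Ppp3cc and Ppp1r12b were not called without any one of the controls or N40K 2 (up to 0.0693 and 0.0890). Ppp1r7 was called only without control 1 and Ppp3r1 only without N40K 1, with adjusted p up to 0.120 and 0.134. Ppp2r2b was not called without control 3 (0.0505), Ppp1r14c and Ppp2r5e without control 2 or control 3 (up to 0.0564 and 0.0624), and Ppp2r2d without any one control (up to 0.0765). Ppp2r2a and Ppp6r3 were not called without any one control or N40K 2 (up to 0.0683 and 0.0773), and Ppp1r16b was called only without N40K 1 (otherwise up to 0.109).

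In the Dusp family, Dusp16 and Dusp8 were called whichever library was left out. Dusp15 was not called without control 2 or control 3 (up to 0.0705), and Dusp19 was called only without N40K 1 (otherwise up to 0.0677). Dusp7 was not called without any one of the 6 libraries (up to 0.108), Dusp5 not without control 1, control 2, N40K 2 or N40K 3 (up to 0.118), and Dusp22 not without any one control or N40K 2 (up to 0.0650).

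**Figure D4:**
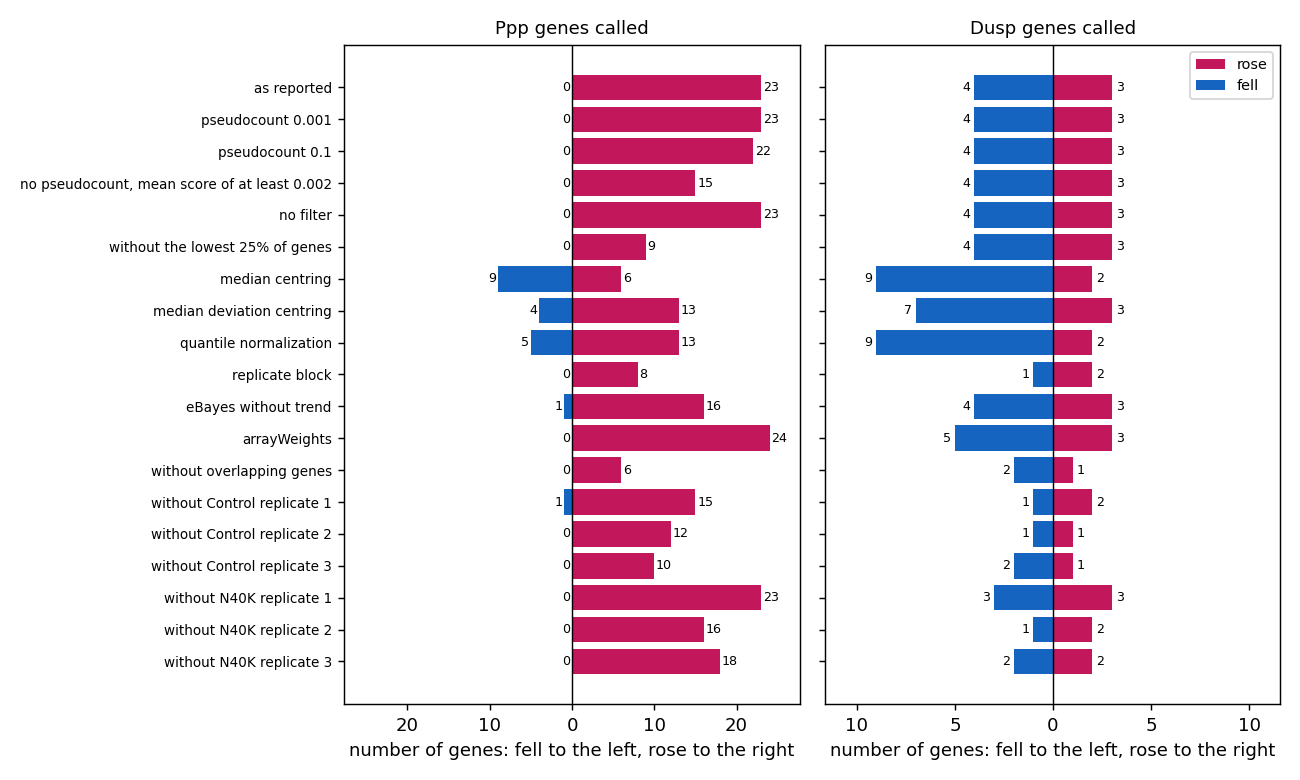
Number of genes called in limma (adjusted p under 0.05) under each setting, with falls to the left and rises to the right, for Ppp genes and Dusp genes. As reported, 23 Ppp genes rose and 0 fell, and 3 Dusp genes rose and 4 fell; median centring gives 6 and 9, and 2 and 9.

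Gene length went with the ratio. The Ppp genes that rose had a median length of 58.4 kb in RefSeq (20.2 to 414.3 kb), those not called 20.3 kb, and the Dusp genes 14.5 kb, against 25.5 kb over all genes with a length. Below 20 kb, 0 of 20 Ppp genes rose in limma and 0 fell, with 2 higher and 1 lower at an unadjusted p under 0.05, whereas 2 of 13 Dusp genes rose and 3 fell, and 9.50% of 6251 genes rose and 6.19% fell. From 20 to 50 kb, 11 of 24 Ppp and neither of 2 Dusp genes rose, against 21.5% of 4057 genes. At 50 kb or more, 12 of 20 Ppp genes rose against 40.4% of 4515 genes, and of 2 Dusp genes Dusp16 rose and Dusp22 fell. Across genes, Spearman's rho of ratio with length was 0.63 for 64 Ppp genes, 0.27 for 17 Dusp genes and 0.40 for 14823 genes. Genes share libraries in these correlations, and longer genes also had lower control scores (rho -0.72 for Ppp, -0.61 for Dusp and -0.59 for all genes). The control score had a median of 0.00855 in Ppp genes, 0.0144 in Dusp genes and 0.0133 in all genes. The part of length and score level in the difference between the families was not tested.

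**Figure D5:**
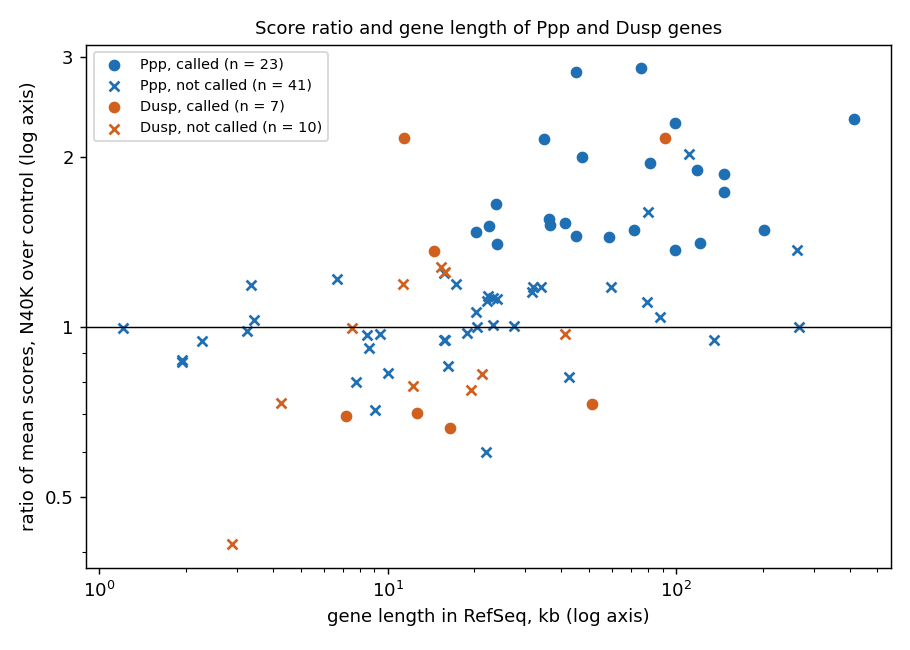
Ratio of mean scores, N40K over control (log axis), against gene length in RefSeq in kb (log axis) for Ppp genes (blue) and Dusp genes (orange), with filled circles for called genes and crosses for the others. All 23 called Ppp genes lie at 20.2 kb or more with a ratio above 1, and the 4 called Dusp genes below a ratio of 1 lie between 7.17 and 51.2 kb.

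Intron number and exon ends were read from the annotation. The median number of introns was 10 in Ppp genes, 4 in Dusp genes and 8 in all genes. The last 3 bases of an exon form part of the site that U1 snRNA pairs with, and CAG is a common form. In the transcript sequences used here, CAG ended 24.5% of 658 Ppp exons that border an intron downstream, 22.5% of 71 such Dusp exons and 23.9% of those of all genes. It ended 21.8% of 285 exons of Ppp genes that rose and 26.5% of 373 exons of those not called. The 5′ splice site beyond the exon was not analysed here.

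Overlap with another gene was common. Reads of a shared stretch could be given to either gene where counting ignored strand or where both genes lie on the same strand. Ppp3r1 and Dusp19, for example, overlap Wdr92 and Nup35 on the same strand. By the annotation, 48 of 79 matched genes (60.8%) overlapped another gene, as did 59.2% of all matched genes, including 17 of the 23 Ppp rises, 2 of the 3 Dusp rises and 1 of 3 matched Dusp falls. Among genes without overlap, 6 of 24 Ppp genes rose and 0 fell (1 lower at an unadjusted p under 0.05), and 1 of 7 Dusp genes rose and 2 fell. Of all 6082 genes without overlap, 17.6% rose and 4.26% fell.

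The kinases and partners around these phosphatases rose in part as well. Of 38 rows of the MAP kinase cascade, 15 rose and 0 fell, beside 21.5% of all genes rising and 4.11% falling. None was lower at an unadjusted p under 0.05 (median ratio 1.20). The list holds the MAP kinases, which the MAP kinase phosphatases switch off, and the kinases above and below them. Map3k4 enters with a row that rose (adjusted p = 0.0242) and another that was not called (adjusted p = 0.0635). After median centring 3 of the 15 were called and 3 of the 38 were lower, beside 9.75% of all genes higher and 18.4% lower. Braf, the kinase at the head of the ERK cascade, went from 0.00607 to 0.0126 (adjusted p = 0.00717). Mapk8, which encodes JNK1, went from 0.00223 to 0.00413 (adjusted p = 0.00793). Rps6ka2, an ERK-activated kinase gene, went from 0.00137 to 0.00243 (adjusted p = 0.00520), with a log2 change of -0.00093 after median centring.

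Of 33 scored phosphatase partners and metal-dependent PPM phosphatases (35 listed), 13 rose and 0 fell, with none lower at an unadjusted p under 0.05 (median ratio 1.24), beside the same 21.5% and 4.11%. After median centring 7 of the 13 were called and 8 of the 33 were lower, beside 9.75% of all genes higher and 18.4% lower. Only Set, Phactr4 and Rcan3 had a ratio below 1, so others of the 8 were lower without a fall in mean score. Strn3, a striatin that serves as a PP2A subunit, went from 0.00283 to 0.00767 with a ratio of 2.71 (adjusted p = 0.00183). Ppm1d, the p53-induced phosphatase, had a ratio of 2.25 (adjusted p = 0.00834) and Ppm1f one of 1.64 (adjusted p = 0.00873). Of 19 scored opposing serine and threonine kinases (21 listed), 6 rose and 1 fell, with 2 lower at an unadjusted p under 0.05 (median ratio 1.24), again beside 21.5% and 4.11%. After median centring 1 of the 6 was called and 7 of the 19 were lower, again beside 9.75% and 18.4% of all genes. Only Csnk2a2, Prkcb and Csnk2b had a ratio below 1, so others of the 7 were lower without a fall in mean score. Eif2ak4, the eIF2 alpha kinase GCN2, went from 0.00757 to 0.0159 (adjusted p = 0.00379). The casein kinase 2 catalytic genes were called in opposite directions, although the rise of Csnk2a1 was not called after median centring (adjusted p = 0.0738). Csnk2a1 scored 0.0019, 0.0019 and 0.0020 in control and 0.0033, 0.0040 and 0.0040 in N40K libraries (adjusted p = 0.00471), while Csnk2a2 scored 0.0338, 0.0300 and 0.0322 in control and 0.0169, 0.0163 and 0.0200 in N40K libraries, a ratio of 0.554 (adjusted p = 0.00567).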

How the data were processed

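RNA of 6 libraries was sequenced as stranded poly(A) libraries with paired reads of 100 nt, per the labels' protocols. Per the submitters' processing notes, the tools include bedtools 2.16.1, BWA, STAR and CASAVA and the build is mm9; their roles are not stated there. The authors deposited 1 table with a score, Sd, for 15705 genes in each library; for its formula, annotation and strand setting nothing is stated in the sources used. Columns were matched to libraries by name, all were used, and none were identical. The depth behind a score is unknown, so no interval that needs it is given.

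log2(score + 0.01) was tested with limma 3.58.1 in R 4.3.3 (lmFit, eBayes with trend); p-values were 2-sided, adjusted by Benjamini and Hochberg's method across the table, and called under 0.05. The filter (above 0 in at least 3 libraries) removed no gene. This scale understates changes at low scores, which is why ratios of mean scores are also given. The limma fit without scaling was tested on simulated data with known changes. The genes and lists were chosen with earlier results of these data known. Named by rule were up to 15 rises and 10 falls by log2 change among called genes whose groups do not overlap, every catalytic subunit gene, Ppp1r1b, Ppp1r9a, Ppp1r9b, Ppp1r15a, Ppp1r15b, Ppp3r1, Dusp1 and Dusp6, and up to 3 genes with the smallest p in each network list; others were chosen after their values were seen. Some genes of the network lists are not reported here.

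Introns, overlaps and exon ends came from GENCODE mouse release M21, on another build than mm9 and matched by gene identifier for 14911 genes (94.9%). Lengths came from RefSeq for 14823 genes and all 81 rows. The alternatives were other pseudocounts and filters, 3 scalings, the replicate number as a block, other eBayes settings, arrayWeights, leaving out overlapping genes and leaving out each library.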

Additional observations from a re-analysis of the deposited data

How the results depend on the processing

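As counts of calls in limma at the same threshold, the 23 Ppp rises became 15 of 53 genes without a pseudocount at a mean score of at least 0.002, 9 of 43 without the lowest 25% of genes, 6 after median centring, 13 after median deviation centring and after quantile normalization, and 6 of 24 without overlapping genes; eBayes without trend gave 16. Leaving out one library gave 10 to 23. Of all genes tested, 2929 of 14306 rose without a pseudocount and 1968 of 11773 without the lowest 25% of genes. Median centring called 9.75% of all genes higher and 18.4% lower, and quantile normalization 12.9% and 12.0%. Median deviation centring called 2235 of 15705 higher and 1518 lower. The counts over all genes under the remaining settings are not given here. The 0 Ppp falls became 9 (median centring), 4 (median deviation centring), 5 (quantile normalization) and 1 (eBayes without trend, Ppp2r1b), and 0 to 1 when a library was left out. Dusp rises became 1 of 7 without overlapping genes and 1 to 3 when a library was left out. Dusp falls became 9, 7 and 9 under the 3 scalings in that order, 2 without overlapping genes and 1 to 3 when a library was left out. Of the network genes, 34 rose: 15 of 47 without the lowest 25% of genes, 11, 19 and 20 under the scalings, 14 of 35 without overlapping genes, and 16 to 37 when a library was left out. Their 1 fall became 18, 6 and 4 under the scalings, 2 with arrayWeights and 0 without overlapping genes.

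No pairing by replicate number was seen in the scores, which does not show that the samples were unpaired. Same-numbered libraries correlated at -0.0712, 0.0376 and -0.0201 in their deviations from the group means. With the replicate block, 8 Ppp and 19 network genes rose and 1 Dusp gene fell.

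The median log2 change of Ppp minus Dusp genes, 0.157, was 0.421 at a pseudocount of 0.001, 0.0216 at 0.1, 0.477 without one, 0.24 without the lowest 25% of genes and 0.272 without overlapping genes. Among the genes named by rule, log2 changes that turned were, after median centring, Ppp1cc -0.0945, Ppp2ca -0.0852, Ppp5c -0.125, Ppp6c -0.0701, Ppp1r9a -0.0331, Ppp3r1 -0.09 and Rps6ka2 -0.000931; after median deviation centring, Ppp1cc -0.0296, Ppp2ca -0.0203, Ppp5c -0.0601, Ppp6c -0.00523 and Ppp3r1 -0.0251; and after quantile normalization, Ppp1cc -0.0737, Ppp2ca -0.0403, Ppp5c -0.108 and Ppp6c -0.021. Leaving out a library gave -0.177 to 0.0047 for Ppp1r15b, -0.0471 to 0.272 for Ppp1r15a and -0.00686 to 0.0202 for Ppp5c. Of these, Ppp3r1 and Rps6ka2 were called as deposited. Outside the rule, the called genes Ppp2r5e, Ppp2r2a, Ppp6r3 and Ppp2r2b turned after median centring, and Ppp6r3 and Ppp2r2b after median deviation centring. Fewer genes were tested under the filters and without overlapping genes; for the other settings the cause was not tested. The last decimal of the scores limits genes such as Ppp3ca and Ppp2r2b.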
